A study of Mus musculus with 8 samples.

Results

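Genes of the lysosome, 43 in all, were followed in CD4+ T cells sorted from the liver of neonatal mice. They were chosen by symbol: lumenal enzymes with the cathepsins among them, membrane proteins, subunits of the proton pump (V-ATPase), regulators and 3 adaptors of autophagy. Cd63 was left out because it had 2 counts in all libraries together, under the minimum of 20. The other 42 genes, of 52997 symbols in the table, each had enough counts to be among the 11490 genes tested. The mice were of the strain labelled Aire- Foxp3 GFP+ (C57/Bl6). All groups, PD-1- cells included, thus came from animals without the thymic regulator Aire, and no mice with Aire were compared. Cells were live, positive for CD45, TCRb and CD4, and negative for the Foxp3 reporter. They were sorted into PD-1- and PD-1+ fractions at 5 and 10 days of age, with 2 libraries per fraction and age and 1000 cells per library, according to the labels. The labels do not say whether replicates came from different animals, so the p-values measure the spread between these libraries.

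The lysosome is the acidic compartment in which a cell breaks down protein, lipid and sugar chains delivered by endocytosis and autophagy. Its acidity is kept by the V-ATPase, a proton pump built from a membrane sector (V0) that carries the protons and a cytosolic sector (V1) that splits ATP. Cathepsins are the proteases of the lumen, and the related factors TFEB and TFE3 switch on many of these genes together by binding a short palindrome, the CLEAR element, in their promoters. In T cells the compartment supplies autophagy, nutrient sensing by mTORC1 at the lysosomal surface, and proteases whose release or leakage can affect survival.

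Totals ran from 1473216 to 3019551 counts per library, and the 42 genes took 0.456 to 0.836% of them. Values are CPM (counts scaled to a common library size with TMM factors). They are given for replicates 2 and 3 at 5 days and replicates 1 and 2 at 10 days, in that order. A difference is a log2 fold change, PD-1+ over PD-1- unless stated, with its standard error, and was called when its Benjamini-Hochberg adjusted p over all tested genes was below 0.05 (edgeR quasi-likelihood test). Pdcd1, which encodes the sorted receptor, stood at 1.62 and 0.568 CPM at 5 days and 1.295 and 1.95 CPM at 10 days in PD-1- cells. The PD-1+ libraries had 317 and 269 CPM at 5 days and 696 and 499 CPM at 10 days. Each of 9 T cell genes (Cd3d, Cd3e, Cd3g, Cd4, Trac, Trbc1, Trbc2, Cd5 and Lck) had at least 361 counts in every library. Xist and Y-linked transcripts showed that both 5-day libraries numbered 3 were male and the other 6 female. Of the 42 genes, 5 lie on the X chromosome (Lamp2, Gla, Tfe3, Atp6ap1 and Atp6ap2).

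Over both ages the genes did not move in 1 direction: 15 of 42 were higher in PD-1+ cells, 12 were lower and 15 were not called. Among all tested genes 41.4% were called, 21.9% higher and 19.6% lower. The median difference of the 42 genes was 0.09, against -0.01 for all tested genes, and the median absolute difference 0.65 against 0.58. Groups of PD-1+ and PD-1- libraries did not overlap for 20 of the 42 genes, 11 with PD-1+ libraries above and 9 with PD-1+ libraries below, where 17.2 and 17.5% of all tested genes were so separated. With upper-quartile scaling the split was 10 higher and 13 lower, and without PD-1- 10-day replicate 2, the shallowest library, it was 9 higher and 10 lower. In sorted bulk cells, fewer cells that make a transcript and less transcript per cell cannot be told apart.

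**Figure D1:**
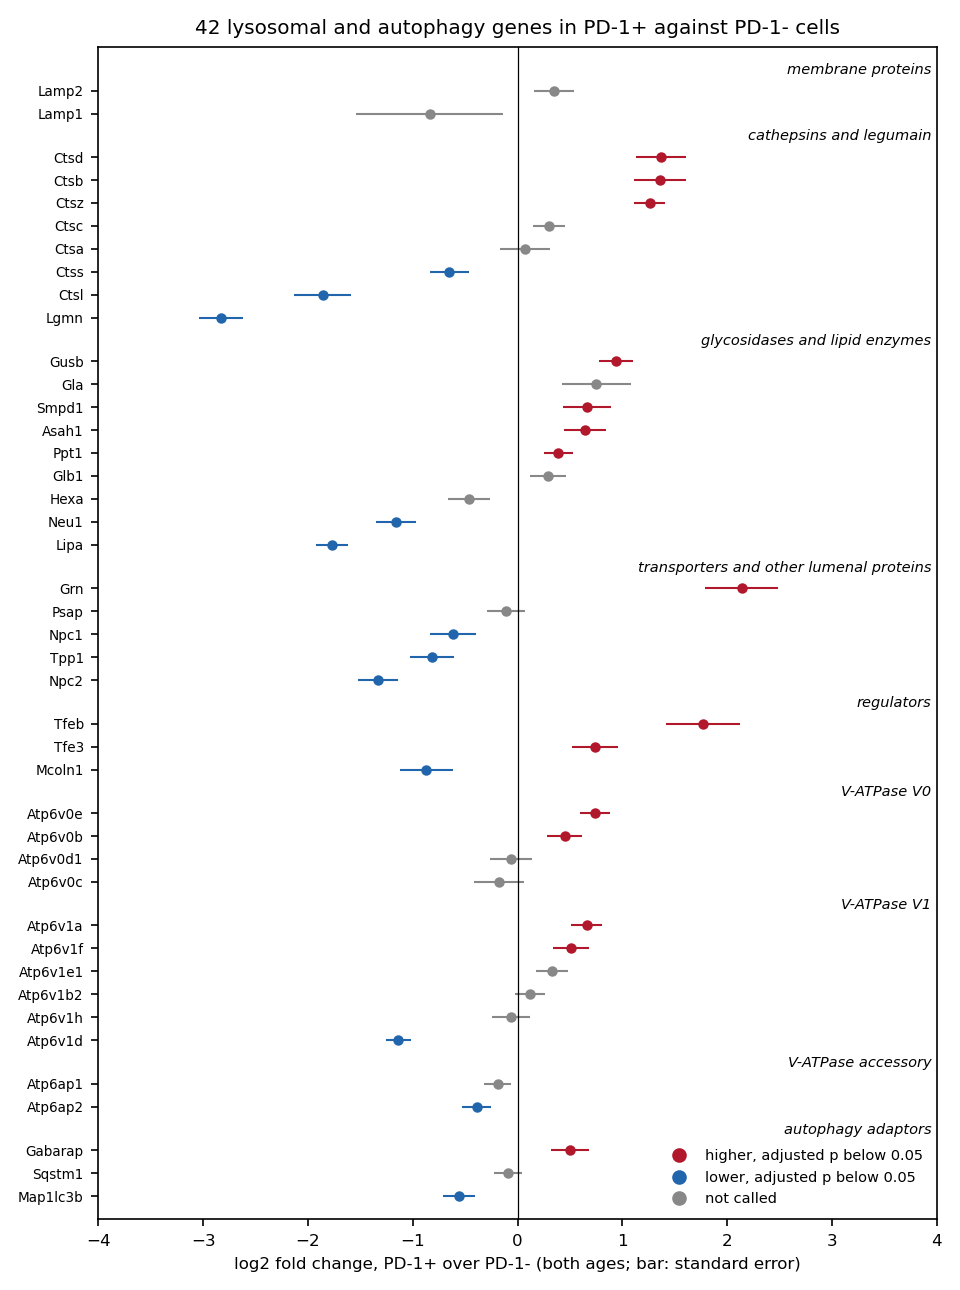
Log2 fold change of each gene in PD-1+ over PD-1- cells across both ages (x axis), with its standard error as a bar, grouped by role; 4 libraries per population. Called genes lie on both sides of 0 among the cathepsins, the lumenal proteins, the lipid and sugar enzymes and the V1 sector, from -2.83 for Lgmn to 2.14 for Grn.

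The regulators were low in level but differed. Tfeb was at 4.21 and 5.11 CPM at 5 days and 3.89 and 3.25 CPM at 10 days in PD-1- cells. In PD-1+ cells it was at 13.4 and 12.4 CPM at 5 days and 17.1 and 13.7 CPM at 10 days. All PD-1+ libraries lay above all PD-1- libraries, and the difference was 1.77 ± 0.35 (edgeR adjusted p = 0.00105), on 5 to 48 counts per library. Tfe3, its X-linked relative with the same target letters, rose from 19.4 and 29.5 CPM at 5 days and 22.99 and 22.8 CPM at 10 days in PD-1- cells to 41.7 and 41.1 CPM at 5 days and 43.5 and 31.6 CPM at 10 days in PD-1+ cells (0.74 ± 0.22, adjusted p = 0.0128). Mcoln1 encodes the lysosomal calcium channel whose current activates TFEB. It ran the other way, at 42.1 and 42.02 CPM at 5 days and 56.02 and 29.9 CPM at 10 days in PD-1- cells, and 27.3 and 17.2 CPM at 5 days and 28.8 and 20.7 CPM at 10 days in PD-1+ cells (-0.87 ± 0.25, adjusted p = 0.0107). Its lowest PD-1- value, 29.9 CPM in the shallowest library, lay just above the highest PD-1+ value. The Mcoln1 call was lost without PD-1- 10-day replicate 1 (adjusted p = 0.0668) and in female libraries alone (adjusted p = 0.0583).

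Since these factors read promoter letters, the promoters of the 42 genes were searched for TCACGTGA, the inner part of the CLEAR element, which is its own reverse complement. Promoters were 250 bases before to 50 after each RefSeq start (GRCm38.p6), and 37 of the 42 genes had one. Of these 37, 7 held the motif (18.9%), against 1.12% of 27025 genes with a promoter entry and 2.41% of 8355 tested genes. The genes were chosen as lysosomal genes, many of which are known to carry the CLEAR element. The excess thus describes the list and not these cells. Of the 7, Ctsd, Atp6v0e and Atp6v1a were higher in PD-1+ cells, Mcoln1 was lower, and Ctsa, Gla and Atp6v0d1 were not called. By direction, 3 of 13 higher genes, 1 of 11 lower genes and 3 of 13 uncalled genes with a promoter held it. The shorter TCACGTG on either strand, which contains the E-box CACGTG and is contained in the longer motif, was in 11 of 37 (29.7%, against 4.29% of all promoters), among them Lgmn, the gene with the lowest fold change. A match describes letters and does not show binding. The 9 sites carry the comparison of direction, so they are shown with 10 bases on each side, written along the gene's strand with the motif in capitals, after the place of the motif's first base relative to the RefSeq start and the window's coordinates.
Ctsd, base -99, chr7:142387909-142387936, minus strand: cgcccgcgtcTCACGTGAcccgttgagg
Atp6v1a, base -132, chr16:44139374-44139401, minus strand: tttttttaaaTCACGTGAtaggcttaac
Atp6v0e, base 3, chr17:26676388-26676415, plus strand: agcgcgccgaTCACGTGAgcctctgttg
Mcoln1, base -46, chr8:3500463-3500490, plus strand: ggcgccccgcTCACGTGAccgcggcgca
Ctsa, base -13, chr2:164833750-164833777, plus strand: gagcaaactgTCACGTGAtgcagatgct
Ctsa, base 5, chr2:164833767-164833794, plus strand: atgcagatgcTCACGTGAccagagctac
Atp6v0d1, base -4, chr8:105566051-105566078, minus strand: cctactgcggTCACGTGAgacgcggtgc
Gla, base -228, chrX:134601216-134601243, minus strand: aagcgattgaTCACGTGAgcatctacgt
Gla, base -195, chrX:134601183-134601210, minus strand: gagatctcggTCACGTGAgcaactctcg

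In GENCODE M21 none of the 9 sites lay in coding sequence. The Ctsd site lay in the first, untranslated exon of 1 of its 3 transcripts and before the start of the other 2. The Mcoln1 site lay in the untranslated first exon of 1 of 11 transcripts and outside the other 10. Ctsd, with the site, was higher in PD-1+ cells (1.37 ± 0.24) and Mcoln1, with the same letters, lower (-0.87 ± 0.25).

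Cathepsins and the asparagine-specific protease legumain spanned the widest range of the roles, with 3 of 8 higher, 3 lower and 2 not called. Ctsd (chr7:142375911-142388038, minus strand, GRCm38) encodes the aspartic protease cathepsin D and stood at 284 and 309 CPM at 5 days and 360.1 and 341 CPM at 10 days in PD-1- cells. PD-1+ cells had 506 and 492 CPM at 5 days and 1657 and 1114 CPM at 10 days. Ctsb (chr14:63122462-63145923, plus strand), a cysteine protease with endopeptidase and carboxypeptidase activity, ran close to it at 326 and 357 CPM at 5 days and 320.0 and 263 CPM at 10 days in PD-1- cells, and 547 and 606 CPM at 5 days and 1377 and 902 CPM at 10 days in PD-1+ cells. For both, every PD-1+ library was above every PD-1- library and the 10-day PD-1+ libraries were highest, replicate 1 most of all. The differences were 1.37 ± 0.24 and 1.36 ± 0.25 (edgeR adjusted p = 0.00121 and 0.00159). Ctsz, a carboxypeptidase also known as cathepsin X, was at 53.8 and 60.8 CPM at 5 days and 50.8 and 50.1 CPM at 10 days in PD-1- cells, and 159 and 126 CPM at 5 days and 113 and 121 CPM at 10 days in PD-1+ cells (1.26 ± 0.15, adjusted p = 9.44e-06). Its PD-1+ libraries ranged from 113 to 159 CPM, with no called difference between the ages (adjusted p = 0.367).

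Legumain and cathepsin L were the members that fell furthest in this group. Lgmn (chr12:102394084-102439813, minus strand), which processes other cathepsins to their mature forms, was at 92.03 and 91.4 CPM at 5 days and 103 and 78.7 CPM at 10 days in PD-1- cells. PD-1+ cells had 10.8 and 9.55 CPM at 5 days and 16.7 and 14.4 CPM at 10 days, a difference of -2.83 ± 0.21 (edgeR adjusted p = 8.57e-08), which is 7.11-fold lower. Ctsl, a cysteine endopeptidase, was at 26.6 and 28.4 CPM at 5 days and 42.7 and 48.8 CPM at 10 days in PD-1- cells, and 5.66 and 10.98 CPM at 5 days and 14.2 and 8.79 CPM at 10 days in PD-1+ cells (-1.86 ± 0.27, adjusted p = 6.71e-05). The 2 populations did not overlap for either gene. Ctss encodes cathepsin S, known for trimming the invariant chain in antigen-presenting cells, and was lower over both ages (-0.65 ± 0.19, adjusted p = 0.0123). Its libraries gave 209 and 133 CPM at 5 days and 193 and 174 CPM at 10 days in PD-1- cells. In PD-1+ cells they gave 92.6 and 74.00 CPM at 5 days and 141 and 161 CPM at 10 days, so the populations were apart within each age and overlapped across ages. The call was lost without PD-1+ 5-day replicate 3 (adjusted p = 0.0614). Ctsa, the protective protein that shields neuraminidase and beta-galactosidase, was not called over both ages (0.07 ± 0.24), and its signs at the 2 ages were opposite, as described with the interaction. Ctsc, the dipeptidyl peptidase that activates granzymes, ranged from 121 to 168 CPM in PD-1- libraries and 152 to 215 CPM in PD-1+ libraries (0.30 ± 0.15, not called).

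**Figure D2:**
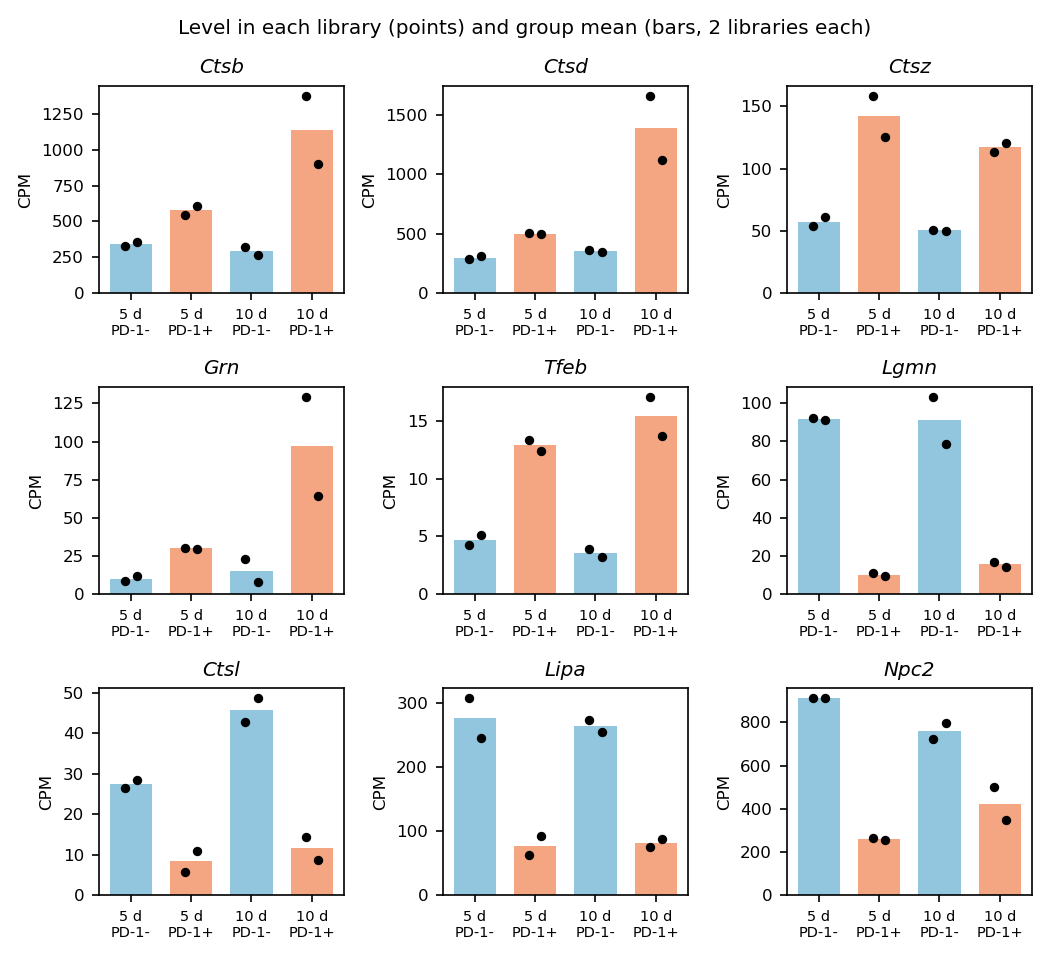
CPM of 9 genes in each library (points) with the mean of the 2 libraries per group (bars), by age and PD-1 fraction. Ctsb, Ctsd and Grn are highest in the 10-day PD-1+ libraries, Ctsz and Tfeb are at like levels in PD-1+ libraries of both ages, and Lgmn, Ctsl, Lipa and Npc2 are lower in PD-1+ libraries.

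Enzymes that cut lipids and sugar chains were likewise divided, with 4 of 9 higher, 2 lower and 3 not called. Lipa, the acid lipase that frees cholesterol and fatty acids from lipoproteins and droplets, was at 308 and 245 CPM at 5 days and 273 and 255 CPM at 10 days in PD-1- cells. In PD-1+ cells it was at 62.8 and 91.7 CPM at 5 days and 75.5 and 87.5 CPM at 10 days (-1.77 ± 0.15, edgeR adjusted p = 3.77e-07). Neu1, the neuraminidase that works in a complex with Ctsa, was at 145 and 128 CPM at 5 days and 162 and 117 CPM at 10 days in PD-1- cells, and 64.8 and 41.5 CPM at 5 days and 58.4 and 83.99 CPM at 10 days in PD-1+ cells (-1.16 ± 0.19, adjusted p = 0.000191). Both were lower in every PD-1+ library than in any PD-1- library. Gusb, the beta-glucuronidase of glycosaminoglycan breakdown, moved upward without overlap, from 55.1 and 49.97 CPM at 5 days and 52.5 and 42.3 CPM at 10 days in PD-1- cells to 112 and 99.8 CPM at 5 days and 78.4 and 95.6 CPM at 10 days in PD-1+ cells (0.94 ± 0.16, adjusted p = 0.00029). Smaller differences upward were called for Smpd1, the acid sphingomyelinase (0.66 ± 0.23), Asah1, the acid ceramidase that acts on its product (0.64 ± 0.20), and Ppt1, which removes palmitate from proteins (0.39 ± 0.14), with adjusted p from 0.0193 to 0.0338. Libraries of the 2 populations overlapped for these 3 genes. The call of Asah1 was lost without PD-1+ 5-day replicate 3 or PD-1- 10-day replicate 2 (adjusted p 0.0604 to 0.077) and in female libraries alone (adjusted p = 0.116). The call of Smpd1 was lost without PD-1- 5-day replicate 2, PD-1- 5-day replicate 3, PD-1+ 5-day replicate 2, PD-1+ 5-day replicate 3, PD-1- 10-day replicate 2 or PD-1+ 10-day replicate 1 (adjusted p 0.0612 to 0.118) and in female libraries alone (adjusted p = 0.125), and was kept in 7 of 15 alternative settings. The call of Ppt1 was lost without PD-1- 5-day replicate 2, PD-1- 10-day replicate 1, PD-1- 10-day replicate 2, PD-1+ 10-day replicate 1 or PD-1+ 10-day replicate 2 (adjusted p 0.0645 to 0.0926), by DESeq2 (adjusted p = 0.0532) and in female libraries alone (adjusted p = 0.054), and was kept in 5 of 15. Gla, the alpha-galactosidase on the X chromosome (0.75 ± 0.33), Hexa, a beta-hexosaminidase subunit (-0.46 ± 0.20), and Glb1, the beta-galactosidase (0.29 ± 0.17), were not called. Glb1 was at 61.6 and 56.2 CPM at 5 days and 79.3 and 51.4 CPM at 10 days in PD-1- cells, and 73.6 and 74.5 CPM at 5 days and 84.1 and 74.5 CPM at 10 days in PD-1+ cells, with PD-1- 10-day replicate 1 among the PD-1+ values.

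Cholesterol that Lipa frees leaves the lysosome through Npc2, a soluble carrier, and Npc1, the membrane protein it hands the sterol to. Both were lower in PD-1+ cells, like Lipa. Npc2 (chr12:84754562-84773152, minus strand) was at 912 and 914 CPM at 5 days and 721 and 799 CPM at 10 days in PD-1- cells. In PD-1+ cells it was at 264 and 255 CPM at 5 days and 500.0 and 347 CPM at 10 days (-1.33 ± 0.19, edgeR adjusted p = 0.000125), without overlap. Npc1 was at 45.7 and 43.2 CPM at 5 days and 47.6 and 48.8 CPM at 10 days in PD-1- cells, and 29.9 and 36.3 CPM at 5 days and 19.6 and 35.5 CPM at 10 days in PD-1+ cells (-0.62 ± 0.22, adjusted p = 0.0348), also without overlap. Its call was lost without PD-1- 5-day replicate 2, PD-1+ 5-day replicate 2, PD-1- 10-day replicate 1, PD-1- 10-day replicate 2 or PD-1+ 10-day replicate 1 (adjusted p 0.0567 to 0.125), and by DESeq2 (adjusted p = 0.0653), and was kept in 8 of 15 alternative settings. Tpp1, a tripeptidyl peptidase, was at 50.5 and 50.5 CPM at 5 days and 59.6 and 54.6 CPM at 10 days in PD-1- cells, and 20.6 and 21.01 CPM at 5 days and 42.7 and 42.9 CPM at 10 days in PD-1+ cells (-0.82 ± 0.21, adjusted p = 0.00563), with the lowest values in the 5-day PD-1+ libraries.

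Grn (chr11:102430315-102437048, plus strand) encodes progranulin, the precursor of lysosomal granulins, and had the greatest upward difference of the 42 genes (2.14 ± 0.35, edgeR adjusted p = 0.000471). It was at 8.42 and 11.9 CPM at 5 days and 22.7 and 7.81 CPM at 10 days in PD-1- cells. Among PD-1+ libraries it stood at 30.4 and 29.6 CPM at 5 days and 129 and 64.3 CPM at 10 days. The 10-day replicates were far apart in both populations, yet the highest PD-1- library stayed below every PD-1+ library. Psap, the saposin precursor that travels with progranulin, was not called (-0.11 ± 0.18) at 229 and 209 CPM at 5 days and 304 and 163 CPM at 10 days in PD-1- cells, and 189.9 and 164 CPM at 5 days and 273 and 227 CPM at 10 days in PD-1+ cells. Its PD-1- libraries at 10 days spanned the values of all PD-1+ libraries.

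The 12 pump genes, 10 subunits of the 2 sectors and 2 accessory proteins, did not move as a unit. In the V0 sector 2 of 4 were higher and 0 lower, a count that was also 0 at an unadjusted p below 0.05. Atp6v0e, the small subunit e1, was at 87.5 and 106 CPM at 5 days and 67.7 and 81.3 CPM at 10 days in PD-1- cells, and 161 and 163 CPM at 5 days and 136 and 112 CPM at 10 days in PD-1+ cells (0.74 ± 0.14, edgeR adjusted p = 0.000747), without overlap. Atp6v0b, a proton-carrying proteolipid, was at 55.4 and 53.9 CPM at 5 days and 44.4 and 47.5 CPM at 10 days in PD-1- cells, and 78.2 and 63.02 CPM at 5 days and 75.5 and 56.6 CPM at 10 days in PD-1+ cells (0.45 ± 0.17, adjusted p = 0.0487). The call was kept in 3 of 15 alternative settings and lost without PD-1- 5-day replicate 2, PD-1- 5-day replicate 3, PD-1+ 5-day replicate 2, PD-1- 10-day replicate 1, PD-1- 10-day replicate 2 or PD-1+ 10-day replicate 1 (adjusted p 0.0735 to 0.153), by DESeq2 (adjusted p = 0.0802) and in female libraries alone (adjusted p = 0.0786). The other proteolipid, Atp6v0c, was at 18.5 and 23.8 CPM at 5 days and 22.02 and 24.1 CPM at 10 days in PD-1- cells, and 17.5 and 14.3 CPM at 5 days and 22.8 and 23.9 CPM at 10 days in PD-1+ cells (-0.18 ± 0.24, not called). A processed copy 99.8% identical over 465 bases may share its reads. Atp6v0d1, which couples the sectors, was not called either (-0.06 ± 0.20), at 41.8 and 35.8 CPM at 5 days and 32.4 and 29.3 CPM at 10 days in PD-1- cells, and 32.9 and 33.9 CPM at 5 days and 37.04 and 29.5 CPM at 10 days in PD-1+ cells.

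Within the V1 sector 2 of 6 were higher, 1 lower and 3 not called. Atp6v1d, a subunit of the central rotor, was the member that fell, at 225 and 213 CPM at 5 days and 255 and 264 CPM at 10 days in PD-1- cells. In PD-1+ cells it was at 91.6 and 108 CPM at 5 days and 116 and 119 CPM at 10 days. Its difference of -1.14 ± 0.12 (edgeR adjusted p = 4.53e-06) was nearly the same at 5 days (-1.13 ± 0.16) and 10 days (-1.14 ± 0.16). Atp6v1a, the catalytic subunit, rose from 76.1 and 98.2 CPM at 5 days and 89.7 and 76.1 CPM at 10 days in PD-1- cells to 125 and 157 CPM at 5 days and 130.0 and 128 CPM at 10 days in PD-1+ cells (0.66 ± 0.15, adjusted p = 0.00224). The populations did not overlap for either subunit, and they moved in opposite directions within 1 complex. Atp6v1f, also of the rotor, was called upward (0.51 ± 0.17, adjusted p = 0.028) although its 5-day PD-1- libraries overlapped the PD-1+ range, at 70.6 and 73.2 CPM at 5 days and 37.6 and 40.98 CPM at 10 days in PD-1- cells, and 82.9 and 84.98 CPM at 5 days and 74.4 and 63.3 CPM at 10 days in PD-1+ cells. Its call was lost without PD-1- 10-day replicate 1, PD-1- 10-day replicate 2, PD-1+ 10-day replicate 1 or PD-1+ 10-day replicate 2 (adjusted p 0.051 to 0.1) and was kept in 10 of 15 alternative settings. Atp6v1e1 (0.33 ± 0.15), Atp6v1b2 (0.12 ± 0.14) and Atp6v1h (-0.06 ± 0.18), of the stators and the catalytic ring, were not called over both ages. For Atp6v1e1 the PD-1+ libraries (99.3 to 139 CPM) lay just above the PD-1- libraries (79.02 to 98.8 CPM). At 10 days alone it was called higher (0.55 ± 0.19, edgeR adjusted p = 0.038). That call was lost by DESeq2 (adjusted p = 0.0937) and without PD-1- 10-day replicate 1 or PD-1+ 10-day replicate 1. Atp6v1h was at 117 and 81.8 CPM at 5 days and 116 and 89.1 CPM at 10 days in PD-1- cells, and 80.3 and 92.1 CPM at 5 days and 134 and 85.04 CPM at 10 days in PD-1+ cells, with the spread between replicates as wide as that between populations.

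Of the accessory proteins, Atp6ap2, the prorenin receptor, was called lower (-0.39 ± 0.14, edgeR adjusted p = 0.0397) at 187 and 199.9 CPM at 5 days and 189.8 and 222 CPM at 10 days in PD-1- cells, and 109.6 and 148 CPM at 5 days and 188 and 167 CPM at 10 days in PD-1+ cells. The call was lost without PD-1- 5-day replicate 2, PD-1- 5-day replicate 3, PD-1+ 5-day replicate 2, PD-1+ 5-day replicate 3, PD-1- 10-day replicate 2 or PD-1+ 10-day replicate 2 (adjusted p 0.066 to 0.19), by DESeq2 (adjusted p = 0.0704) and in female libraries alone (adjusted p = 0.13), and was kept in 5 of 15 alternative settings. Atp6ap1 was at 201 and 165 CPM at 5 days and 224 and 180.2 CPM at 10 days in PD-1- cells, and 177 and 145 CPM at 5 days and 176 and 179.9 CPM at 10 days in PD-1+ cells (-0.19 ± 0.13, not called). Both genes are X-linked.

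The heavily glycosylated membrane proteins Lamp1 and Lamp2 line the lysosome and are often used to mark it. Neither was called over both ages, nor did either pass an unadjusted p of 0.05. Lamp1 had the largest standard error of the 42 genes (-0.84 ± 0.70), at 179 and 63.6 CPM at 5 days and 57.6 and 163 CPM at 10 days in PD-1- cells, and 91.1 and 76.9 CPM at 5 days and 12.5 and 85.7 CPM at 10 days in PD-1+ cells. Replicates of a group were far apart in both PD-1- pairs and in the 10-day PD-1+ pair. Its exons overlap those of Grtp1 on the opposite strand by 249 bases. Lamp2 was at 108 and 88.01 CPM at 5 days and 73.5 and 81.3 CPM at 10 days in PD-1- cells, and 88.5 and 92.6 CPM at 5 days and 147 and 122 CPM at 10 days in PD-1+ cells (0.35 ± 0.19), with its highest values in the 10-day PD-1+ libraries. At 10 days alone Lamp2 was called higher (0.80 ± 0.19, edgeR adjusted p = 0.00432), a call lost without PD-1- 10-day replicate 1 or PD-1+ 10-day replicate 1 (adjusted p 0.0519 to 0.0533).

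Sqstm1 encodes p62, the receptor that ties ubiquitinated cargo to the autophagosome, and was among the most abundant members. It was at 660.4 and 739 CPM at 5 days and 805 and 635 CPM at 10 days in PD-1- cells, and 640.3 and 614 CPM at 5 days and 759 and 666 CPM at 10 days in PD-1+ cells (-0.09 ± 0.13, not called), with the 2 populations interleaved. The ubiquitin-like proteins that coat the autophagosome were called in opposite directions. Map1lc3b (LC3B) was lower in PD-1+ cells (-0.56 ± 0.15, edgeR adjusted p = 0.0084), at 301 and 306 CPM at 5 days and 360.4 and 366 CPM at 10 days in PD-1- cells, and 151 and 169 CPM at 5 days and 334 and 295 CPM at 10 days in PD-1+ cells, and only the 5-day PD-1+ libraries lay below the PD-1- libraries by a wide margin. Its call was lost in female libraries alone (adjusted p = 0.0848). Gabarap was called higher (0.50 ± 0.18, adjusted p = 0.0396), at 122 and 150.5 CPM at 5 days and 88.1 and 96.3 CPM at 10 days in PD-1- cells, and 129 and 148 CPM at 5 days and 186 and 177 CPM at 10 days in PD-1+ cells. Its 10-day PD-1+ libraries lay above all others, and the call was lost without PD-1- 5-day replicate 2, PD-1- 10-day replicate 1, PD-1- 10-day replicate 2, PD-1+ 10-day replicate 1 or PD-1+ 10-day replicate 2 (adjusted p 0.055 to 0.155) and kept in 7 of 15 alternative settings. Map1lc3b has copies up to 99.7% identical over 378 bases, which may share reads of 25 bases.

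Exons of Ctsb share 774 bases with Fdft1 on the opposite strand, and exons of Ctsd share 808 bases with Gm49369 on the same strand. The exons of 16 of the 42 genes in all share bases with some other gene. No source used here says if strand was used in counting, so the reads of such pairs cannot be told apart. Fdft1 itself was not called (0.43, edgeR adjusted p = 0.149), and Gm49369 was not among the symbols counted. Cap1 shares 129 bases with Ppt1 on the opposite strand and had 3552 counts. It was the only tested partner called, in the same direction as Ppt1 (0.9, edgeR adjusted p = 0.000101).

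Levels of different genes were compared as CPM per kilobase of exon. The length joined the exons of all annotated transcripts of a gene, used in these cells or not, and the order depends on it. By CPM alone Npc2 (837 ± 93.96, mean ± SD) stood above Sqstm1 (710.1 ± 77.3) in PD-1- cells, with joined lengths of 5438 and 3356 bases. Per kilobase, the order in PD-1- cells was Sqstm1 (212 ± 23.02, mean ± SD, n = 4 libraries), Npc2 (154 ± 17.3), Ctsd (138 ± 14.3) and Ctss (131 ± 23.99). Of these, Npc2, Ctsd and Ctss lay within about their spread of each other. In PD-1+ cells it was Ctsd (401 ± 237), Sqstm1 (199.6 ± 18.8), Ctsb (142 ± 62.7) and Ctsz (89.9 ± 13.9), the SD of Ctsd spanning both ages. Lgmn went from rank 16 of 42 to rank 36, and Grn from rank 39 to rank 27. Tfeb was last in PD-1- cells (0.726 ± 0.137) and next to last in PD-1+ cells (2.496 ± 0.3598).

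Compared at each age, PD-1+ cells had 9 genes higher and 12 lower at 5 days, and 14 higher and 6 lower at 10 days. Of all tested genes 34.3% were called at 5 days, 17.6% higher and 16.7% lower, and 29.3% at 10 days, 16.4% higher and 12.9% lower. Atp6v1d, Ctsz, Lgmn, Lipa, Npc2 and Ctsd were called at both ages in all 15 alternative settings. At 5 days the calls of Tfeb, Grn and Mcoln1 were lost without any 1 of the 4 libraries of that age (adjusted p 0.0624 to 0.338). The 5-day count of higher genes fell to 4 without PD-1- 5-day replicate 2, and the 10-day count to 8 without PD-1+ 10-day replicate 1. Upper-quartile scaling gave 11 higher and 8 lower genes at 10 days.

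Whether the PD-1 difference changed with age was tested as an interaction, which called 4 genes upward and 0 downward. Of all tested genes 2.12% were called, 1.2% upward and 0.923% downward. At an unadjusted p below 0.05 the counts were 9 and 0, and DESeq2 called 4 and 0. Ctsa (chr2:164832873-164841032, plus strand) had opposite signs at the 2 ages: it was lower in PD-1+ cells at 5 days (-0.58 ± 0.16, edgeR adjusted p = 0.0108) and higher at 10 days (0.71 ± 0.16, adjusted p = 0.00296). Its 5-day call was lost without PD-1- 5-day replicate 2 or PD-1+ 5-day replicate 2. Its libraries gave 318 and 258 CPM at 5 days and 212 and 233 CPM at 10 days in PD-1- cells, and 184 and 202 CPM at 5 days and 395 and 331 CPM at 10 days in PD-1+ cells, and the interaction was 1.29 ± 0.23 (adjusted p = 0.00665). Ctsd went from 0.75 ± 0.17 at 5 days to 1.98 ± 0.17 at 10 days (interaction 1.23 ± 0.23, adjusted p = 0.0123), and Ctsb from 0.76 ± 0.18 to 1.96 ± 0.19 (interaction 1.21 ± 0.26, adjusted p = 0.0265). Npc2 stayed lower in PD-1+ cells but by less at 10 days, from -1.82 ± 0.17 to -0.84 ± 0.16 (interaction 0.97 ± 0.23, adjusted p = 0.0346). The count of 4 fell to 0 without PD-1+ 5-day replicate 2, to 1 without PD-1+ 5-day replicate 3 or PD-1- 10-day replicate 2, and to 2 without PD-1- 10-day replicate 1 or PD-1+ 10-day replicate 1. Ctsa kept its call in 14 of 15 alternative settings, Ctsd in 11, Ctsb in 9 and Npc2 in 7.

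**Figure D3:**
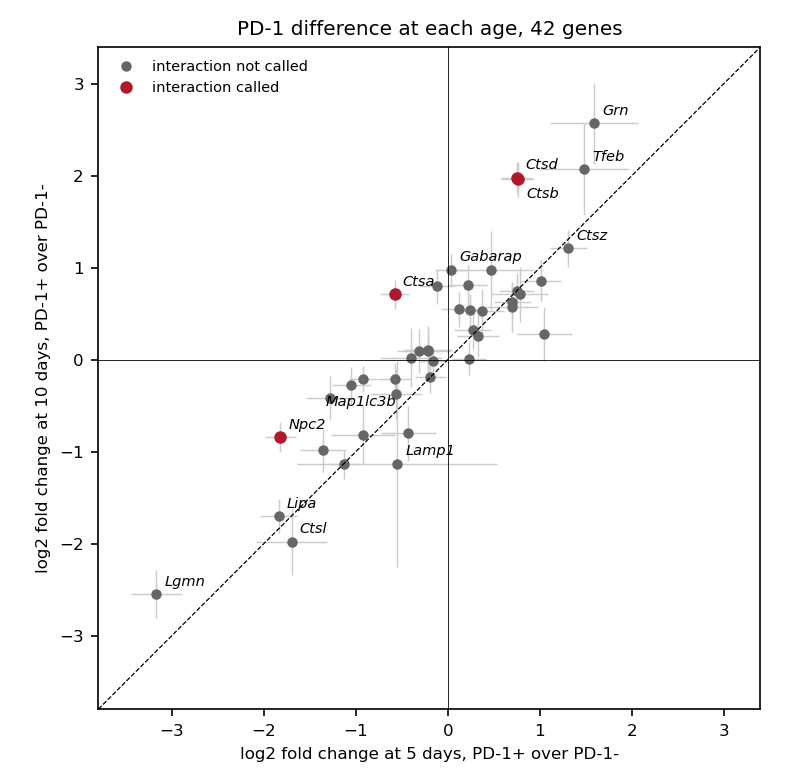
Log2 fold change of PD-1+ over PD-1- cells at 5 days (x axis) and at 10 days (y axis) for the 42 genes, with standard errors as bars and equal values on the dashed line; the ages share no library. Ctsa, Ctsb, Ctsd and Npc2, whose interaction was called, lie above the line, and Lipa, Ctsz and Atp6v1d lie close to it.

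From 5 to 10 days, 8 of 42 genes rose and 0 fell in PD-1+ cells. The count that fell was also 0 at an unadjusted p below 0.05 and by DESeq2. Among all tested genes 14.4% changed, 7.39% upward and 6.98% downward. The 8 genes were Ctsd (1.47 ± 0.17, edgeR adjusted p = 3.16e-05), Ctsb (0.98 ± 0.18), Ctsa (0.91 ± 0.16), Ctss (0.86 ± 0.21), Map1lc3b (0.97 ± 0.15), Tpp1 (1.04 ± 0.26), Npc2 (0.71 ± 0.16) and Grn (1.69 ± 0.42). All 8 are autosomal, and 1 of the 2 PD-1+ libraries at 5 days, replicate 3, is from a male. The count fell to 5 without PD-1+ 5-day replicate 2 or PD-1+ 10-day replicate 1 and to 4 without PD-1+ 5-day replicate 3, where Ctsa, Ctsb, Ctsd and Map1lc3b were left. In PD-1- cells edgeR called 0 of 42 genes in either direction (0.27% of all tested genes, 0.148% upward and 0.122% downward), with 4 at an unadjusted p below 0.05 and 0 by DESeq2. These 4, named after their values were seen, were Ctsl, with the higher value at 10 days (0.73 ± 0.34), and Ctsa (-0.37 ± 0.16), Atp6v1f (-0.88 ± 0.22) and Gabarap (-0.56 ± 0.18), with the lower, at edgeR adjusted p from 0.129 to 0.462. Whether the change with age differed between the populations is what the interaction tested.

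Summed by role, cathepsins and legumain reached 3931 and 2805 CPM in the 10-day PD-1+ libraries, against 1691 and 1680.5 in the 5-day PD-1+ libraries and 1335 to 1431 CPM in the PD-1- libraries. Ctsb and Ctsd alone gave 35.8 and 29.8% of the counts of the 42 genes in the 10-day PD-1+ libraries, 20.3 and 21.1% in the 5-day PD-1+ libraries and 9.83 to 11% in PD-1- libraries. Without these 2 genes the other 40 summed to 5432 and 4755 CPM in 10-day PD-1+ libraries and 4145 and 4117 CPM in 5-day PD-1+ libraries. In PD-1- libraries they summed to 5179 to 5594 CPM. These sums are descriptions and were not tested.

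**Figure D4:**
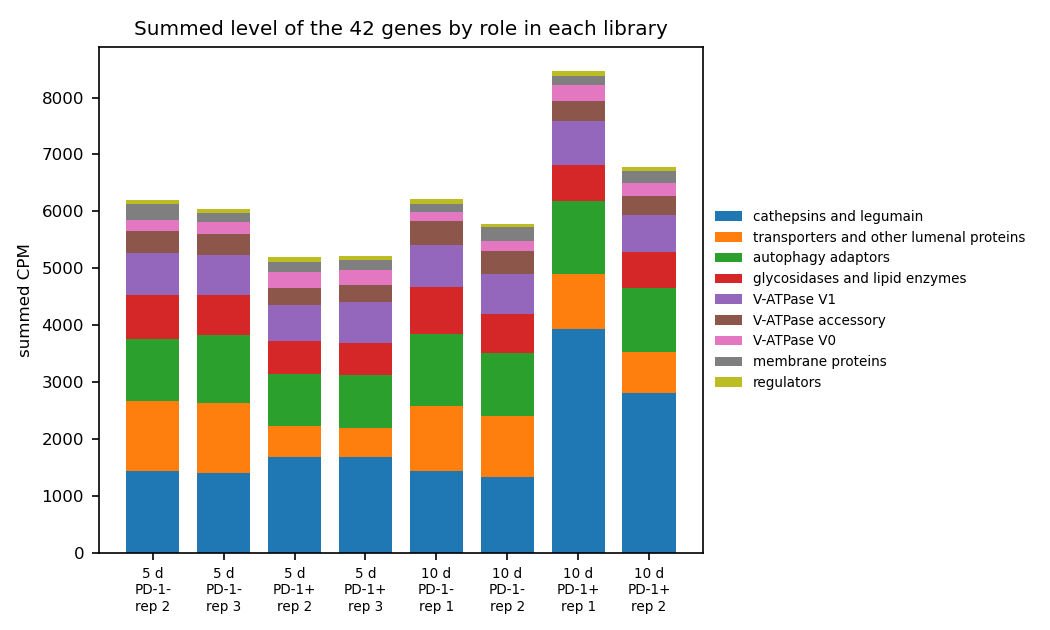
Summed CPM of the 42 genes in each library, stacked by role. The cathepsin and legumain segment is tallest in the 2 libraries of 10-day PD-1+ cells, and the segment of transporters and other lumenal proteins is shortest in the 5-day PD-1+ libraries.

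Macrophages and dendritic cells are rich in cathepsins, so their markers are given beside these values. Of 16 macrophage and Kupffer cell markers 6 could be tested, with Cd5l higher and Cd68 lower in PD-1+ cells. Cd68 is itself a lysosomal membrane protein and was at 19.8 to 44.9 CPM in PD-1- and 6.68 to 30.6 CPM in PD-1+ libraries. The other 15 markers summed to 17.5 and 66.4 CPM in PD-1- and 52.5 and 48.7 CPM in PD-1+ libraries at 5 days, and to 4.53 and 5.85 CPM in PD-1- and 41.7 and 40.4 CPM in PD-1+ libraries at 10 days. Adgre1, Clec4f, Cd5l, Lyz2, C1qa, C1qb, C1qc and Cd14 were at 0 counts in both 10-day PD-1- libraries. Of the 15 markers, 11 and 8 were at 0 in the 10-day PD-1- libraries and 5 and 2 in the 5-day PD-1- libraries. In PD-1+ libraries 0 to 3 of the 15 markers were at 0. At 10 days Cd5l, C1qb and Marco were called higher in PD-1+ cells, 3 of 6 tested beside 16.4% of all tested genes. Their counts in 10-day PD-1- cells were 0 or nearly so, and Cd5l was also called in the interaction. Cd68 rose from 5 to 10 days in PD-1+ cells (1.96 ± 0.35, edgeR adjusted p = 0.00146). Within PD-1+ cells the sum of the 15 markers was lower at 10 than at 5 days. With Cd68 added, the sum of all 16 was higher at 10 days (72.3 and 67.8 CPM) than at 5 days (60.7 and 55.4 CPM). Ctsb, Ctsd and Grn were also higher at 10 days. In PD-1- cells at 5 days, replicates 2 and 3 had 15-marker sums of 17.5 and 66.4 CPM, Ctsb at 326 and 357 CPM and Ctsd at 284 and 309 CPM. At 10 days the sum and the cathepsins Ctsb and Ctsd were higher in PD-1+ cells. The part of such cells in the values at either age was not tested. The 10 dendritic cell markers summed to 16.2 and 61.3 CPM in PD-1- and 60.2 and 52.04 CPM in PD-1+ libraries at 5 days. At 10 days they summed to 50.8 and 16.9 CPM in PD-1- and 123 and 81.9 CPM in PD-1+ libraries, so this sum was highest in the 10-day PD-1+ libraries, replicate 1 above replicate 2, as Ctsb, Ctsd and Grn were. Xcr1 alone gave 49.5 and 35.1 CPM of these 10-day PD-1+ sums, and at most 1.62 CPM in any PD-1- library. Without Xcr1 the sum was still highest in PD-1+ 10-day replicate 1. PD-1+ 10-day replicate 2 then lay below PD-1- 5-day replicate 3 and PD-1- 10-day replicate 1, so the order of the groups rested on Xcr1. Over both ages all 6 markers that could be tested had a positive sign. Only 1 of them was called, Xcr1 (5.04 ± 0.41), and at 10 days Itgax was called as well (3.55 ± 1.14, edgeR adjusted p = 0.0285). Among markers too low to test, Flt3 averaged 2.07 CPM over PD-1- libraries against 0.913 CPM over PD-1+ libraries. Siglech reached 11.0 CPM in PD-1- 10-day replicate 1 and at most 0.351 CPM in any PD-1+ library. Clec9a had 4 counts in all. Of the 8 hepatocyte markers 3 of 4 tested were called higher, beside 21.9% of all tested genes. The 8 summed to 10.8 to 20.4 CPM in PD-1- and 28.6 to 79.3 CPM in PD-1+ libraries. B cell markers were lower in PD-1+ libraries (290 to 352 CPM, against 544 to 638 CPM in PD-1- libraries, mainly Ighm, -1.01 ± 0.13). Endothelial and stromal markers were too (101 to 145 against 296 to 379 CPM, mainly Pecam1, -1.38 ± 0.14). The sum of the 2 CD8 T markers was also lower (6.18 to 27.4 against 27.5 to 47.6 CPM), through Cd8b1 (-1.92 ± 0.38). Cd8a had a positive sign and was not called (0.62 ± 0.70). Erythroid markers were lower (2.06 to 5.34 against 11.1 to 29.8 CPM), mainly Gata1 (-3.63 ± 0.59), of which alone the level allowed a test. Neutrophil markers stayed at 5.7 CPM or less, and Cd79b was called higher at 10 days. The part of all these cells in the results was not tested.

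Genes of T cell identity were also called in these contrasts. Of the 9 T cell genes, 5 were called higher in PD-1+ cells at 10 days and 2 lower at 5 days. The same number, 5, rose from 5 to 10 days in PD-1+ cells. Of all tested genes 16.4% were higher at 10 days, 16.7% were lower at 5 days and 7.39% rose with age in PD-1+ cells. The interaction was called upward for 1.2% of them. The 9 T cell genes summed to 9369 and 7814 CPM in the 10-day PD-1+ libraries and 5749 and 6027 CPM in the 5-day PD-1+ libraries. In PD-1- libraries they summed to 5863 to 6776 CPM. The interaction was called for 3 of 9, Cd3e (1.08 ± 0.22, edgeR adjusted p = 0.0159), Cd3g (1.06 ± 0.25, adjusted p = 0.0392) and Trbc1 (1.05 ± 0.23, adjusted p = 0.0315). Those values are close to the ones of Ctsa, Ctsb, Ctsd and Npc2, and a link between the 2 sets of genes was not tested.

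A wider list of 122 genes of the same pathways was counted in the same way, of which 103 could be tested. Over both ages 20 were higher and 23 lower, shares of 19.4 and 22.3% beside the 21.9 and 19.6% of all tested genes. Among the called genes, the greatest differences upward were those of Cst7, which encodes cystatin F, an inhibitor of cathepsins made by lymphocytes (3.87 ± 0.58), Optn, an autophagy receptor (2.69 ± 0.63), Arsb, a sulfatase (2.35 ± 0.22), Gnptab, which tags lysosomal enzymes with mannose 6-phosphate (1.72 ± 0.24), Scpep1, a carboxypeptidase (1.66 ± 0.30), and Lamtor4, a subunit of the Ragulator scaffold of mTORC1 (1.61 ± 0.29). Cst7 was at 10.7 and 12.5 CPM at 5 days and 6.801 and 6.504 CPM at 10 days in PD-1- cells. In PD-1+ cells it was at 70.5 and 58.2 CPM at 5 days and 316 and 216 CPM at 10 days, so that its 10-day PD-1+ libraries were highest, like those of Ctsb and Ctsd. Its interaction was also called (2.82 ± 0.40, edgeR adjusted p = 0.00118). Among the called genes the greatest downward were those of Tpcn1, a lysosomal cation channel (-1.85 ± 0.29), Atg14 (-1.70 ± 0.29) and Rb1cc1 (-1.22 ± 0.29), which act in starting autophagosomes, Calcoco1, an autophagy receptor (-1.49 ± 0.21), Tsc1, a brake on mTORC1 (-1.17 ± 0.23), and Ctso, a further cathepsin (-1.07 ± 0.33). Ctsf, a cathepsin named after its value was seen, had a lower value that was not called (-2.18 ± 0.88, adjusted p = 0.0584). Among mTORC1 and TFEB control genes 5 of 15 were higher and 3 lower, and among autophagy genes 4 of 25 were higher and 9 lower. Of 5 further pump subunits that could be tested edgeR called 0, and 1, Tcirg1, passed an unadjusted p of 0.05 (0.39 ± 0.16, adjusted p = 0.0645).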

How the data were processed

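RNA-seq libraries of sorted liver CD4+ T cells were compared, 2 per PD-1 fraction and age. The deposited table held whole-number counts per gene symbol; the authors aligned reads with STAR 2.5.4 to mm10 and counted with featureCounts, per the submitters' processing notes. No source used here names the annotation, the strand setting or the treatment of multiply mapped reads. Genes passing edgeR's expression filter (11490) were scaled by TMM and tested with edgeR 4.0.16 (quasi-likelihood, robust; R 4.3.3), in a model of age plus PD-1 for both ages together and a model of the 4 groups for each age, for age within a population and for the interaction. P-values were Benjamini-Hochberg adjusted over all tested genes, and calls were made below 0.05. The test was checked on simulated counts. Per-library values were given for the 3 genes of smallest p and the gene of largest p in each role, for genes called in an age contrast or the interaction, and for genes lower in PD-1+ cells. From the wider list up to 6 called genes per direction were named. The members and lists were chosen with earlier results of these data known. Alternatives were 2 other scalings, 2 other filters, DESeq2 1.42.0, a replicate block, female libraries alone and leaving out each library. Gene coordinates and transcripts came from GENCODE M21 and promoters from RefSeq (GRCm38.p6). Totals of 1473216 to 3019551 counts from 1000 cells limit precision for the genes of lowest count.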

Additional observations from a re-analysis of the deposited data

Results flagged for a closer look

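The PD-1 difference itself differed between the ages for 4 genes by the interaction term of the 4-group model (edgeR, adjusted over all tested genes). The PD-1 difference at 10 days minus that at 5 days was 1.29 on the log2 scale for Ctsa (adjusted p = 0.00665), which was higher in both PD-1+ than both PD-1- libraries at 10 days and lower at 5 days. It was 1.23 for Ctsd (adjusted p = 0.0123) and 1.21 for Ctsb (adjusted p = 0.0265), which were higher in both PD-1+ libraries at each age. For Npc2, which was lower in both PD-1+ libraries at each age, it was 0.97 (adjusted p = 0.0346).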

How the results depend on the processing

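Of the 27 calls over both ages, 16 were kept in every alternative that tested the gene, and no called gene changed direction. The balance of higher over lower genes over both ages did turn, from 15 and 12 to 10 and 13 with upper-quartile scaling and to 9 and 10 without PD-1- 10-day replicate 2. At 5 days 11 of 21 calls, at 10 days 12 of 20, in PD-1+ cells with age 4 of 8 and in the interaction 0 of 4 were kept in all. In female libraries alone 5 genes were higher at 5 days, 4 rose with age in PD-1+ cells and 1 was called in the interaction. When each library was left out in turn, the number higher was 9 to 13 over both ages, 4 to 9 at 5 days, 8 to 14 at 10 days, 4 to 9 with age in PD-1+ cells and 0 to 4 in the interaction; the single library left in a group was assumed to vary like the others. Same-numbered libraries deviated together with a correlation of 0.0938 at 5 days and 0.114 at 10 days over 11490 genes. Such low values cannot exclude a shared animal, since counting noise also lowers them. At 5 days sex matched by number, with both libraries numbered 3 male and both numbered 2 female. The labels state no pairing, so the replicate block was kept as an alternative. With the replicate block 12 genes were higher and 11 lower over both ages, 10 and 12 at 5 days, and 14 and 8 at 10 days, and the interaction called 5. No block was possible for the change with age, where numbers pair no libraries. Tfeb was not tested when at least 10 counts were required in every library. Low counts limit Tfeb, with 5 in 1 library.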
